A study of Mus musculus with 2 samples.

Results

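The cells described here were classical monocytes of the mouse liver that carried no transcript of a set of macrophage, lymphocyte and plasmacytoid genes. A cell was a member when it held at least 5 UMIs (unique molecular identifiers, each marking 1 captured transcript) summed over Ly6c2, Chil3, F13a1, Vcan and Fn1, at least 1 UMI of Csf1r, and no UMI of Gpnmb, Trem2, Clec4f, Timd4, Siglech, Cd3d, Cd3e, Cd3g or Cd79a. Cells entered this choice with at least 300 detected genes and under 20% of their UMIs in mitochondrially encoded genes. In all, 260 of 18867 such cells met the rule, 100 of them in the PKM2ΔMAC library and 160 in the PKM2FL/FL library. The values of the rule genes are therefore a description of the choice and are not read as findings.

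Classical monocytes are short-lived myeloid cells that leave the bone marrow through the chemokine receptor CCR2, carry Ly6C on their surface in mice, and enter injured tissue. In an inflamed liver they can mature into macrophages, among them the Gpnmb and Trem2 expressing cells that gather in steatohepatitis, or take on dendritic cell features. They answer to bacterial products and cytokines through NF-κB and interferon signalling and release chemokines that call other leukocytes.

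The study set PKM2ΔMAC mice, in which, by the name, the pyruvate kinase isoform PKM2 was deleted in macrophages, beside PKM2FL/FL mice, which carry the floxed allele. Both were fed a methionine- and choline-deficient (MCD) diet for 8 weeks, a diet that brings about steatohepatitis and fibrosis, and no library from a normal diet is analysed here. Non-parenchymal liver cells were taken by perfusion and a density gradient and profiled by 10x Genomics 3′ droplet sequencing, with 1 library per genotype. The sources used here do not give how many animals went into a library, their age and sex, or the promoter behind the deletion. With 1 library per genotype there was no replicate error, so no difference could be tested, and genotype and library cannot be told apart. Intervals below are exact 95% intervals that cover counting error only, and thresholds of 2-fold and 1.5-fold serve as fixed rules of size.

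The deposited matrices held 43134027 UMIs in 8949 barcodes of the PKM2ΔMAC library and 54519921 UMIs in 10054 barcodes of the PKM2FL/FL library. After the cell filters 8877 PKM2ΔMAC and 9990 PKM2FL/FL cells were left. The libraries shared 17 barcodes, and 0 members were among them. The members summed to 916652 UMIs in the PKM2ΔMAC library and 1563579 UMIs in the PKM2FL/FL library, so 1 UMI was worth 1.09 counts per 1000000 (CPM) and 0.640 CPM in those sums. A member had a median of 8374.5 UMIs (range 906 to 65963) and 2434 genes in the PKM2ΔMAC library, and 8931.5 UMIs (range 1726 to 40864) and 2591 genes in the PKM2FL/FL library. The median mitochondrial share was 1.87% in PKM2ΔMAC members and 2.20% in PKM2FL/FL members. The deepest single member held 7.20% of all member UMIs in the PKM2ΔMAC library and 2.61% in the PKM2FL/FL library, so a few deep cells weigh on summed levels, more so in the PKM2ΔMAC library.

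Members made up 1.13% of PKM2ΔMAC cells (0.917% to 1.37%) and 1.60% of PKM2FL/FL cells (1.36% to 1.87%), by exact Clopper-Pearson intervals. The ratio of the shares was 0.703 (0.542 to 0.909), which lay below 1 by more than counting error. The ratio stayed within this interval in 10 of 11 alternative settings, and in each of these its own interval lay below 1. The exception left out cells with any UMI of Retnlg, Csf3r or Cxcr2, which kept 59 PKM2ΔMAC and 72 PKM2FL/FL members. It gave 0.922 (0.642 to 1.32), an interval that includes 1. Of these genes Csf3r was the most common, carried by 34 PKM2ΔMAC and 74 PKM2FL/FL members. Members with at least 20 UMIs of the neutrophil genes S100a8, S100a9 and Retnlg numbered 8 in PKM2ΔMAC and 3 in PKM2FL/FL. With cells carrying other types' transcripts left out, a setting chosen after seeing the data, the ratio was 0.705 (0.523 to 0.944). Whether the cells with Retnlg, Csf3r or Cxcr2 account for the lower share was not tested. The next most alike cells met all clauses except that they carried Gpnmb or Trem2. These numbered 35 in the PKM2ΔMAC library and 64 in the PKM2FL/FL library, and their ratio of shares was 0.615 (0.396 to 0.943). A single clause often decided membership. Csf1r alone kept out 466 PKM2ΔMAC and 236 PKM2FL/FL cells, and the sum of the 5 genes alone kept out 210 and 361. At the edge of the sum, 6 members in each library held exactly 5 UMIs, and 4 PKM2ΔMAC and 11 PKM2FL/FL cells that met all else held 4. Most members were far from that edge, since 81 PKM2ΔMAC and 128 PKM2FL/FL members held over 10.

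The 5 genes of the sum made up different mixtures in the libraries. Chil3, which encodes the chitinase-like protein Ym1 of freshly released monocytes, gave 54.9% of their UMIs in PKM2ΔMAC members and 32.2% in PKM2FL/FL members. Fn1, the matrix protein fibronectin, gave 15.6% in PKM2ΔMAC members and 30.2% in PKM2FL/FL members, and F13a1, a clotting transglutaminase subunit, gave 5.84% and 14.1%. Ly6c2, the surface antigen that defines the classical subset, was carried by 85 of 100 PKM2ΔMAC members at 946 CPM and by 134 of 160 PKM2FL/FL members at 727 CPM. Its median over single members was 7.24 UMIs per 10000 (highest 61.6) in PKM2ΔMAC and 5.28 (highest 42.6) in PKM2FL/FL, so the cells of the genotypes overlapped widely. Chil3 was carried by 62 PKM2ΔMAC members, with a median of 18.3 UMIs per 10000 and a highest of 209.7, against 88 PKM2FL/FL members, with a median of 2.63 and a highest of 243. All 5 genes were found together in 26 PKM2ΔMAC and 49 PKM2FL/FL members. Only 1 of them was found in 20 PKM2ΔMAC and 10 PKM2FL/FL members, 13 and 5 of which carried Ly6c2 alone.

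**Figure D1:**
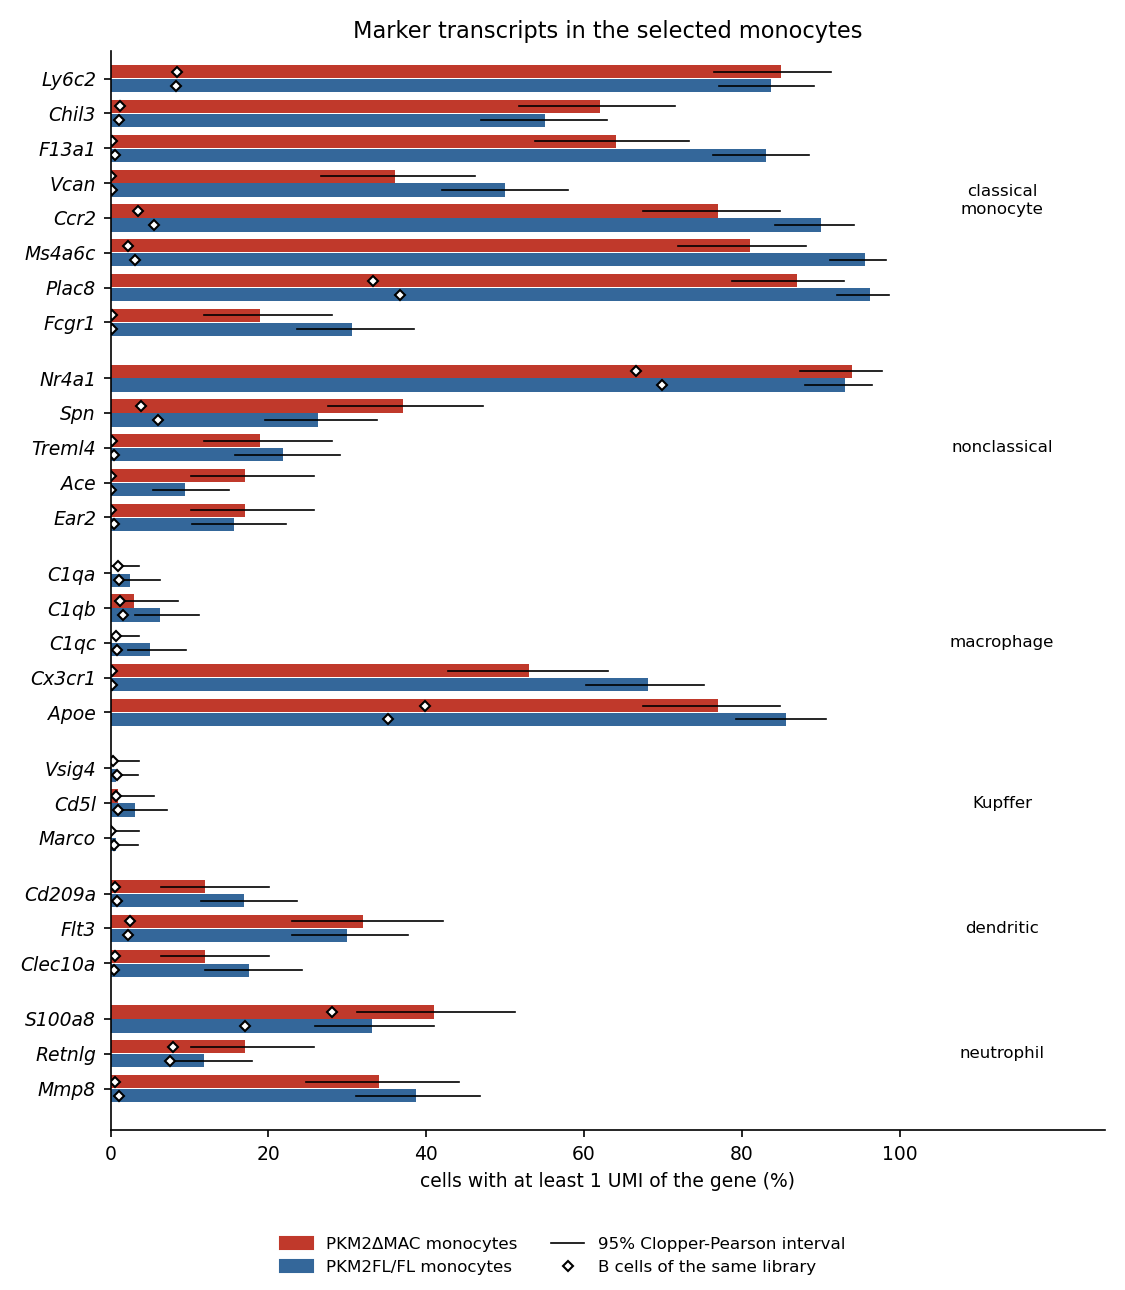
Horizontal bars give the share of members with at least 1 UMI of each marker gene, in percent, with PKM2ΔMAC (red) above PKM2FL/FL (blue). Lines are exact 95% Clopper-Pearson intervals and diamonds the share of B cells of the same library, a guide to free RNA. Ly6c2, Chil3, F13a1 and Vcan belong to the selection rule. Plac8 was found in 87.0% of PKM2ΔMAC and 96.2% of PKM2FL/FL members, and the C1q and Kupffer cell genes lie near 0.

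Markers outside the rule fit the label of classical monocytes in most members. Ms4a6c, a membrane protein gene of monocytes, was detected in 81 PKM2ΔMAC members at 809 CPM and in 153 PKM2FL/FL members at 852 CPM. Ccr2 was detected in 77.0% of PKM2ΔMAC members at 489 CPM and 90.0% of PKM2FL/FL members at 743 CPM. B cells chosen by Cd79a, which should lack Ccr2, showed it in 3.47% and 5.46% of cells at median depths of 2806 and 3241 UMIs, so its signal in members lay far above free RNA. C1qa, a complement gene of tissue macrophages, was found in 0 PKM2ΔMAC and 4 PKM2FL/FL members, C1qb in 3 and 10, and Vsig4, a Kupffer cell receptor, in 0 and 1. Other macrophage-linked genes were common. Lgals3, which encodes galectin-3, was carried by 95 PKM2ΔMAC and 158 PKM2FL/FL members, and Cx3cr1, the fractalkine receptor, by 53 and 109. The absence of macrophage genes thus holds for the genes of the rule and the C1q genes, not for Cx3cr1 or Lgals3.

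A minority of members carried transcripts of other types. Cd209a, a dendritic cell lectin, was found in 12 PKM2ΔMAC and 27 PKM2FL/FL members, and Flt3, the dendritic cell growth factor receptor, in 32 and 48. The neutrophil marker list summed to 6189.9 CPM in PKM2ΔMAC members and 474 CPM in PKM2FL/FL members, where S100a8 alone gave 2274 CPM and 128 CPM. S100a8 was seen in 41.0% of PKM2ΔMAC and 33.1% of PKM2FL/FL members, close above the 28.0% and 17.0% of B cells. The excess sat in few cells: 8 PKM2ΔMAC members with at least 20 UMIs of S100a8, S100a9 and Retnlg held 97.6% of those UMIs, and 3 PKM2FL/FL members held 64.8%. Bile duct genes (Epcam, Krt8, Krt18, Clu and Spp1) were concentrated further, with 2 members of each library holding 99.6% of these UMIs in PKM2ΔMAC and 97.1% in PKM2FL/FL. These 4 cells were deep, with medians of 56942 and 18681 UMIs, and each carried only 1 of the 5 rule genes. The doublet caller Scrublet marked 4 PKM2ΔMAC and 7 PKM2FL/FL members. Members that carried only Ly6c2 included 5 PKM2ΔMAC and 1 PKM2FL/FL cells with at least 3 UMIs of natural killer genes. The part of these cells in the differences below was not tested as a cause, but each leading value was also computed without them.

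Pkm, the gene targeted in the study, was lower in PKM2ΔMAC members. It lies on chromosome 9 (GRCm38, chr9:59656368-59679375, plus strand) and encodes both the PKM1 and the PKM2 splice forms, which differ by an exclusive internal exon pair. In PKM2ΔMAC members 282 UMIs of Pkm (308 CPM) were counted, in 83 of 100 cells, with a median of 2.58 and a highest of 27.9 UMIs per 10000. In PKM2FL/FL members 911 UMIs (583 CPM) were counted, in 153 of 160 cells, with a median of 5.50 and a highest of 19.7. The ranges of single cells overlapped widely and the ratio of the sums was 0.528 (0.460 to 0.604), a log2 ratio of -0.92. At an equal 2000 UMIs per cell, Pkm was detected in 47.9% of 96 PKM2ΔMAC members and 64.3% of 157 PKM2FL/FL members. Because 3′ reads can lie outside a deleted internal exon, this level does not check the deletion. The log2 ratio was below 0 in all 8 cell gates compared, B, T and natural killer cells included, from -0.40 to -1.50, so a lower Pkm level was not particular to the myeloid cells.

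Of 14 measured glycolysis genes (at least 50 member UMIs in all), 0 were at least 1.5-fold higher and 3 at least 1.5-fold lower in PKM2ΔMAC members. The same size was passed upward by 451 of 5424 genes (8.31%) and downward by 398 (7.34%). The 3 were Pkm, Tpi1 (triose phosphate isomerase; 65.5 CPM in PKM2ΔMAC and 112 CPM in PKM2FL/FL members, log2 -0.77) and Pgam1 (phosphoglycerate mutase; 137 CPM and 207 CPM, log2 -0.59). Gapdh, the most abundant of them, had 938 CPM in PKM2ΔMAC and 1326 CPM in PKM2FL/FL members (log2 -0.50). On the side of export, Slc16a3, the lactate carrier MCT4, had 129.8 CPM in PKM2ΔMAC and 89.5 CPM in PKM2FL/FL members (log2 0.54). The list median was -0.29 log2, against -0.0022 over all measured genes, and stayed below 0 in all alternatives run, from -0.49 to -0.12. Mitochondrially encoded genes had a median of -0.21, with mt-Nd3, a complex I subunit, at least 1.5-fold lower (91.6 CPM in PKM2ΔMAC and 157 CPM in PKM2FL/FL members). Nuclear genes of the respiratory chain had a median of 0.13, with 1 of 48 at least 1.5-fold higher (Uqcrb, a complex III subunit, log2 0.60) and 0 lower.

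The lysozyme genes showed the widest gap. Lyz2, which encodes the lysozyme M of monocytes, macrophages and neutrophils, gave 18 UMIs in 13 of 100 PKM2ΔMAC members (19.6 CPM), with a median of 0 and a highest of 5.35 UMIs per 10000. In PKM2FL/FL members it gave 25484 UMIs in 157 of 160 cells (16299 CPM), with a median of 178 and a highest of 593 UMIs per 10000. The ratio was 0.00120 (0.000714 to 0.00190), a log2 ratio of -9.70, so Lyz2 was among the most abundant transcripts of PKM2FL/FL members and near absent in PKM2ΔMAC members. Its neighbour Lyz1 went the other way, with 543 UMIs in 23 PKM2ΔMAC members (592 CPM) and 25 UMIs in 11 PKM2FL/FL members (15.99 CPM). Their loci lie side by side on the minus strand of chromosome 10 (GRCm38, Lyz2 at chr10:117277331-117282321 and Lyz1 at chr10:117287797-117292868). The annotated transcripts were 96.0% identical over 1262 aligned bases, so reads can be split between the copies and each single count is uncertain. The Lyz1 count of PKM2ΔMAC members was small beside the Lyz2 count of PKM2FL/FL members, so both genes summed were also far lower in PKM2ΔMAC members. Lyz2 was lower in PKM2ΔMAC cells of all 8 gates, by log2 ratios from -4.88 to -9.70. The Lyz2 locus carries the Cre of a widely used myeloid deleter line. Which driver was used is not stated in the sources here, and whether this ratio reflects an altered Lyz2 locus was not tested.

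Across all genes that reached 100 member UMIs in all and 100 CPM in 1 library or both, 49 of 1586 (3.09%) were at least 2-fold higher in PKM2ΔMAC members and 11 (0.694%) at least 2-fold lower. For 41 of the 49 higher genes a single cell held over 20% of a library's UMIs, against 2 of the 11 lower ones. The count of higher genes ran from 11 to 63 and that of lower genes from 7 to 24 over the alternatives, so neither count is firm. With those single-cell genes, genes far more abundant in other gates, the rule genes and unnamed genes left out, 1354 genes could be ranked, and the 14 at each end were taken as named genes. Of these 28, 27 kept their sign in all 16 alternatives, and 19 never came under 1.5-fold. The exception was Il1rn, which had a log2 ratio of 0.07 with members thinned to equal depth.

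**Figure D2:**
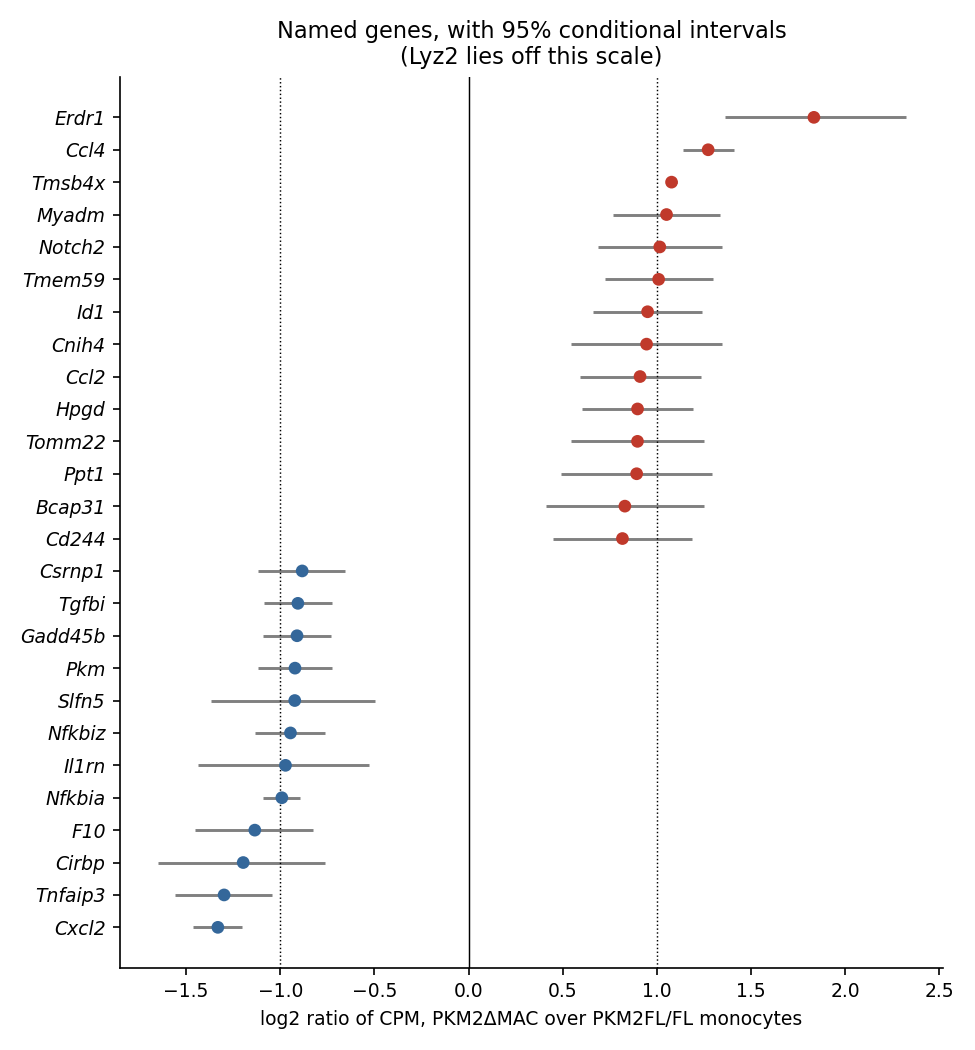
Points give the log2 ratio of CPM in PKM2ΔMAC over PKM2FL/FL members for named genes, red above 0 and blue below, with lines for exact 95% counting intervals and dotted lines at 2-fold. Lyz2, at -9.70, lies off the scale and is not drawn. Erdr1, Ccl4 and Tmsb4x stand highest, and Cxcl2, Tnfaip3 and Cirbp lowest among those drawn.

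Among the higher genes, Tmsb4x had the most transcripts. It encodes thymosin β4, which binds actin monomers, and gave 23613 CPM in PKM2ΔMAC and 11188 CPM in PKM2FL/FL members, a ratio of 2.11 (2.07 to 2.15). Single members had a median of 239 UMIs per 10000 (16.6 to 629.6) in PKM2ΔMAC and 110.1 (12.4 to 361) in PKM2FL/FL, so the centres differed while the ranges overlapped. Ccl4, a chemokine that attracts leukocytes, had 1174 CPM in 64 of 100 PKM2ΔMAC members and 486 CPM in 82 of 160 PKM2FL/FL members, a ratio of 2.42 (2.20 to 2.65). At 2000 UMIs per cell it was found in 47.9% of PKM2ΔMAC and 29.9% of PKM2FL/FL members. Erdr1, a gene at the pseudoautosomal end of the sex chromosomes whose copies make read assignment uncertain, had 128 CPM in PKM2ΔMAC and 35.8 CPM in PKM2FL/FL members, a ratio of 3.56 (2.57 to 4.99). All 3 were higher in PKM2ΔMAC cells of all 8 gates, Erdr1 by log2 1.37 to 1.87, Tmsb4x by 0.79 to 1.21 and Ccl4 by 0.17 to 1.54. Ccl2, the ligand of CCR2, had 189 CPM in 28 PKM2ΔMAC members and 100.4 CPM in 41 PKM2FL/FL members (log2 0.91). The other higher genes lay between log2 0.82 and 1.05. They were Myadm, a myeloid membrane protein (253 CPM in PKM2ΔMAC and 122 CPM in PKM2FL/FL members), the receptor Notch2 (189 and 93.4 CPM), Tmem59 (243 and 121 CPM), Hpgd, which breaks down prostaglandins (220.4 and 118 CPM), Id1, an inhibitor of helix-loop-helix factors, Cnih4, Tomm22 of the mitochondrial import pore, the lysosomal thioesterase Ppt1, the endoplasmic reticulum protein Bcap31 and the receptor Cd244.

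After Lyz2, Cxcl2 and Tnfaip3 stood lowest, followed by Cirbp, F10 and Nfkbia, and 3 of these 5 are textbook NF-κB targets. Cxcl2, a chemokine that attracts neutrophils through CXCR2 (chr5:90903871-90905938, plus strand), gave 584 UMIs (637 CPM) in 23 of 100 PKM2ΔMAC members and 2506 UMIs (1603 CPM) in 83 of 160 PKM2FL/FL members. The ratio was 0.398 (0.363 to 0.435). The PKM2ΔMAC cells had a median of 0 and a highest of 135 UMIs per 10000 and the PKM2FL/FL cells a median of 0.920 and a highest of 277, so the lower sum went with fewer positive cells, and 19.8% of PKM2ΔMAC against 40.1% of PKM2FL/FL members were positive at 2000 UMIs per cell. Tnfaip3, which encodes the ubiquitin-editing inhibitor A20, had 169 CPM in 51 PKM2ΔMAC members and 416 CPM in 123 PKM2FL/FL members, a ratio of 0.407 (0.339 to 0.485). Nfkbia, the inhibitor IκBα (chr12:55489410-55492647, minus strand), had 1192 CPM in 89 PKM2ΔMAC members and 2370.2 CPM in 159 PKM2FL/FL members, a ratio of 0.503 (0.470 to 0.538). A PKM2ΔMAC member had a median of 8.98 and a highest of 79.2 UMIs of Nfkbia per 10000, and a PKM2FL/FL member a median of 22.8 and a highest of 138.5. Most cells of both genotypes thus carried Nfkbia, at a lower typical level in PKM2ΔMAC. The ratios of all 3 genes were below 1 in all 8 gates, with log2 from -0.28 to -1.33 for Cxcl2, -0.51 to -1.96 for Tnfaip3 and -0.31 to -1.22 for Nfkbia.

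Start-site windows of Cxcl2, Cxcl1 and Nfkbia, textbook NF-κB targets among the lower genes, are shown. This lets their NF-κB-like motif be read beside the values. Tnfaip3 is not shown because its windows held no match. Each runs from 250 bases before to 50 bases after a RefSeq start site (GRCm38.p6), 5′ to 3′ on the gene's strand, and capitals mark GGGA and TTCC with any 2 bases between them, searched on both strands, where matches may overlap. Cxcl2 (chr5:90903649-90903948, plus strand) and Cxcl1 (chr5:90890995-90891294, plus strand) each held 2 matches that overlap, and Nfkbia (chr12:55492598-55492897, minus strand) held 1. Il6 (chr5:30012864-30013163, plus strand), also among the lower genes, held 1 as well, and its window is not shown. This motif was found in 482 of 32851 windows of this length (1.47%). It was found in 2 of 14 matched NF-κB feedback genes (Nfkb2 and Nfkbia) and in 4 of 16 matched inflammatory genes (Cxcl1, Cxcl2, Cxcl3 and Il6). It was also found in 2 of 35 matched interferon response genes (Ifit2 and Ifitm3) and in a window of Myadm, which was higher in PKM2ΔMAC members. Nfkb2 itself had 51.3 CPM in PKM2ΔMAC and 49.2 CPM in PKM2FL/FL members (log2 0.06). A match describes the sequence only.
Cxcl2: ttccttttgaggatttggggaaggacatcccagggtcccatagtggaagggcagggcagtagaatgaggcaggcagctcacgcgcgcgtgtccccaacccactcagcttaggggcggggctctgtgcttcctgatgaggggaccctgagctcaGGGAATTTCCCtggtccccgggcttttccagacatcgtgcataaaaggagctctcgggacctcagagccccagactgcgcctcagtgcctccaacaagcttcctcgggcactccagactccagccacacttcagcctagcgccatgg
Cxcl1: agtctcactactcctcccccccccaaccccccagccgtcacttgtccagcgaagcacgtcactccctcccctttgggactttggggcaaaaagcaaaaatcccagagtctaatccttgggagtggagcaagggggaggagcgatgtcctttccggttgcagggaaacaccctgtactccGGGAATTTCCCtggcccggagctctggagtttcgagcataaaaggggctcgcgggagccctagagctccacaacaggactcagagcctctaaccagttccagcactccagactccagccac
Nfkbia: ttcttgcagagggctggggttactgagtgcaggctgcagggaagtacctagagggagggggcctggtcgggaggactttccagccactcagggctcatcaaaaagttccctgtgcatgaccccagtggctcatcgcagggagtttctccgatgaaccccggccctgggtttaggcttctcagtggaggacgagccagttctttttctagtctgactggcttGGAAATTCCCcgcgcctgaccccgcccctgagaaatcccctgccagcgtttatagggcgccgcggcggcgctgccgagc

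The NF-κB feedback list holds genes that the factor switches on, most of which then restrain it. Of its 17 measured genes 0 were at least 1.5-fold higher in PKM2ΔMAC members and 7 at least 1.5-fold lower, beside 8.31% and 7.34% of all measured genes. Below Tnfaip3 and Nfkbia came Relb (32.7 CPM in PKM2ΔMAC and 64.0 CPM in PKM2FL/FL members, log2 -0.97), Nfkbiz, which encodes IκBζ (345 and 664 CPM, log2 -0.95), Nfkbid (116 and 197 CPM, log2 -0.77), Birc3, a ubiquitin ligase that limits cell death (104 and 171 CPM, log2 -0.72) and Traf1 (127 and 204 CPM, log2 -0.69). In none of the 7 did a single cell hold over 20% of a library's UMIs. In all 15 of 17 lay below 0, and the highest was Nfkbib at 0.41. The median was -0.51 and stayed between -0.69 and -0.32 under all alternatives. Thinned to 2000 UMIs, a PKM2ΔMAC member carried a median of 7.5 UMIs of the list (quartiles 4.75 and 12.25) and a PKM2FL/FL member 14 (8 and 20). The PKM2ΔMAC median thus lay below the PKM2FL/FL lower quartile, so the lower level was spread over many cells.

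**Figure D3:**
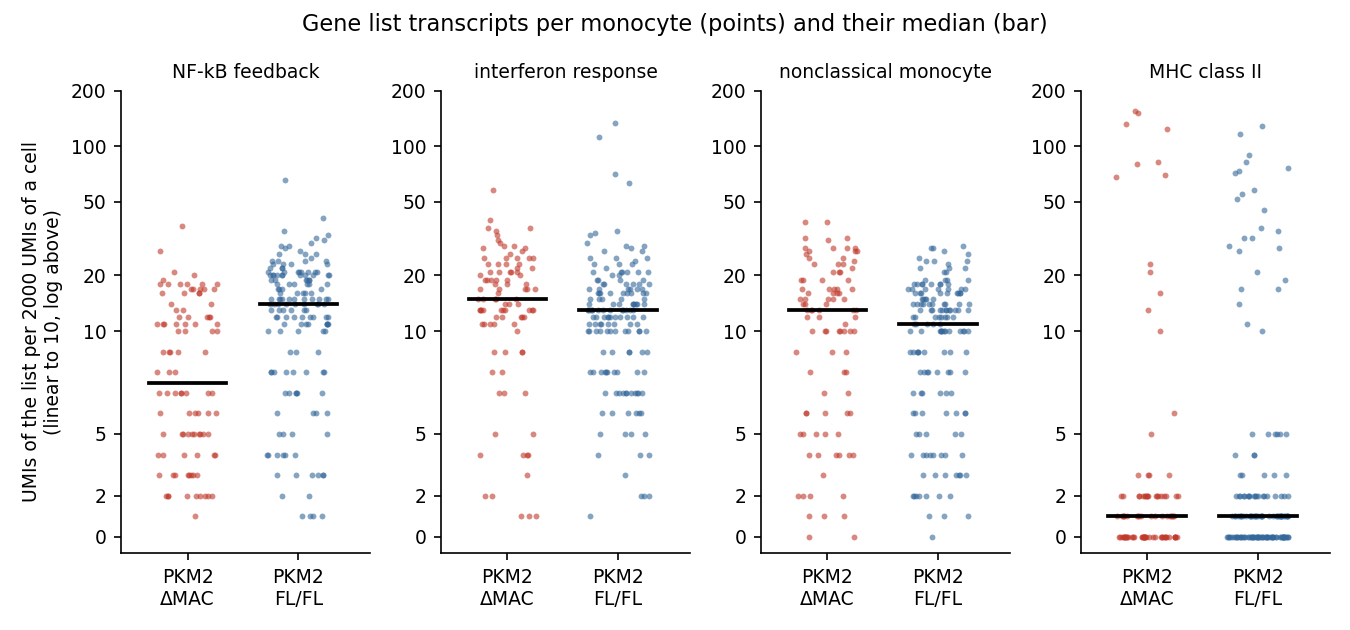
Each point is 1 member and gives the UMIs of a gene list per 2000 UMIs of the cell, on an axis that is linear to 10 and logarithmic above, with PKM2ΔMAC (96 members) left of PKM2FL/FL (157 members) and a bar at the median. For NF-κB feedback the medians are 7.5 in PKM2ΔMAC and 14 in PKM2FL/FL. For MHC class II both medians are 1, with a few cells far above.

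Inflammatory effectors split. Of 17 measured genes 6 were at least 1.5-fold lower in PKM2ΔMAC members and 2, Ccl4 and Ccl2, were higher, beside 7.34% and 8.31% of all measured genes. In 4 of the 6 (Tnf, Il6, Cxcl1 and Ptgs2) a single cell held over 20% of a library's UMIs. Tnf, outside the ranking because 1 PKM2FL/FL cell held 25% of its UMIs, gave 24 UMIs in 16 PKM2ΔMAC members (26.2 CPM) and 248 UMIs in 59 PKM2FL/FL members (159 CPM), a ratio of 0.165 (0.104 to 0.251). Il6 had 31.6 CPM in PKM2ΔMAC and 77.4 CPM in PKM2FL/FL members, and Ptgs2, the inducible cyclooxygenase, 116 CPM and 207 CPM. Cxcl1 came from 3 PKM2ΔMAC and 13 PKM2FL/FL members only. Il1rn, the interleukin 1 receptor antagonist, was the last of the 6, with a log2 ratio of -0.97. Il1b, in contrast, had 1771 CPM in 74 PKM2ΔMAC members and 2123 CPM in 125 PKM2FL/FL members, a log2 ratio of -0.26, short of the 1.5-fold size. Cxcl2 and Il1b were found together in 20 of the 23 Cxcl2-positive PKM2ΔMAC members and 72 of the 83 PKM2FL/FL ones, beside Il1b in 74.0% of all PKM2ΔMAC and 78.1% of all PKM2FL/FL members. The list median was -0.07.

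Immediate early genes, which are induced within minutes by a stimulus or by tissue dissociation, had no firm direction. Their median was 0.06, and it lay between -0.13 and 0.38 over the alternatives, with 3 of 22 at least 1.5-fold higher (Egr1, Atf3 and Fosb) and 1 lower, Dusp2, a phosphatase (303 CPM in PKM2ΔMAC and 527 CPM in PKM2FL/FL members). In each of the 3 higher genes a single PKM2ΔMAC cell held over 20% of the UMIs. Of all measured genes 8.31% were higher and 7.34% lower by the 1.5-fold size. Per cell the median was lower: at 2000 UMIs a PKM2ΔMAC member carried a median of 29.5 of its UMIs (quartiles 20 and 40.25) and a PKM2FL/FL member 34 (23 and 47), which overlap widely. Fos had 3259 CPM in PKM2ΔMAC and 2262 CPM in PKM2FL/FL members (log2 0.53), and Zfp36, an RNA-decay factor, 1554 and 1625 CPM. Over single members, the thinned counts of immediate early and NF-κB feedback genes were positively related, with Spearman's rho of 0.48 over 96 PKM2ΔMAC cells and 0.33 over 157 PKM2FL/FL cells, cells that share a library and free RNA.

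The remaining lower genes of the ranking had varied roles. Cirbp, a cold-inducible RNA-binding protein, had 60 CPM in 34 PKM2ΔMAC members and 137.5 CPM in 109 PKM2FL/FL members, a log2 ratio of -1.20, and its relative Rbm3 had 802 and 1194 CPM (log2 -0.57). F10, coagulation factor X, gave 110 UMIs in 50 PKM2ΔMAC members and 412 UMIs in 103 PKM2FL/FL members, a ratio of 0.455 (0.366 to 0.563). Tgfbi, a matrix protein, had 361 CPM in 78 PKM2ΔMAC members and 677 CPM in 148 PKM2FL/FL members, a log2 ratio of -0.91. Gadd45b, a stress-response gene, had 364 and 685 CPM (log2 -0.91), Slfn5, an interferon-inducible Schlafen gene, 65.5 and 124 CPM (log2 -0.92), and Csrnp1, a nuclear protein gene, had a log2 ratio of -0.88.

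Interferon response genes gave opposite pictures by gene and by cell. Of 39 measured genes 1 was at least 1.5-fold higher in PKM2ΔMAC members (Oas1a, an RNA sensor) and 13 were lower, among them Isg15, a ubiquitin-like modifier (74.2 CPM in PKM2ΔMAC and 137.5 CPM in PKM2FL/FL members), Oasl1 (12 and 37.7 CPM) and Cmpk2 (12 and 35.8 CPM). Of all measured genes 8.31% were higher and 7.34% lower by this size. In 8 of the 13 lower interferon genes a single cell held over 20% of a library's UMIs. The median over genes was -0.19, and with cells carrying other types' transcripts left out it was 0.33. The summed list, led by Ifitm3, a membrane protein that blocks virus entry (3996 and 3522 CPM), came to 7629 CPM in PKM2ΔMAC and 7516 CPM in PKM2FL/FL members. At 2000 UMIs a PKM2ΔMAC member carried a median of 15 interferon-response UMIs and a PKM2FL/FL member 13. Neither direction can therefore be given for the list. Genes linked to interferon-γ had 1 of 12 higher and 5 lower, 4 of the 5 through a single cell: Cxcl9 was seen in 3 PKM2ΔMAC and 4 PKM2FL/FL members.

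MHC class II genes, which present peptides to CD4 T cells, were concentrated in few members. In the PKM2ΔMAC library 15 members with at least 20 of these UMIs held 94.1% of them, and in the PKM2FL/FL library 30 members held 92.5%. These carriers had a median of 8 UMIs for the sum of the 5 rule genes in both libraries, against 26.5 in all PKM2ΔMAC and 28.5 in all PKM2FL/FL members. A dendritic gene was also found in 12 of the 15 PKM2ΔMAC and 23 of the 30 PKM2FL/FL carriers. Among all members it was found in 42 of 100 PKM2ΔMAC and 65 of 160 PKM2FL/FL cells. H2-Ab1 had 1111 CPM in PKM2ΔMAC and 668 CPM in PKM2FL/FL members (log2 0.73), but 1 PKM2ΔMAC cell held 25.4% of its UMIs. The list median of 0.27 turned to -0.95 among members with a sum of at least 10, so its direction depended on whether cells near the edge of the rule were counted. Among MHC class I genes the median was 0.01, with B2m, the shared light chain, at 2422 CPM in PKM2ΔMAC and 1779 CPM in PKM2FL/FL members.

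**Figure D4:**
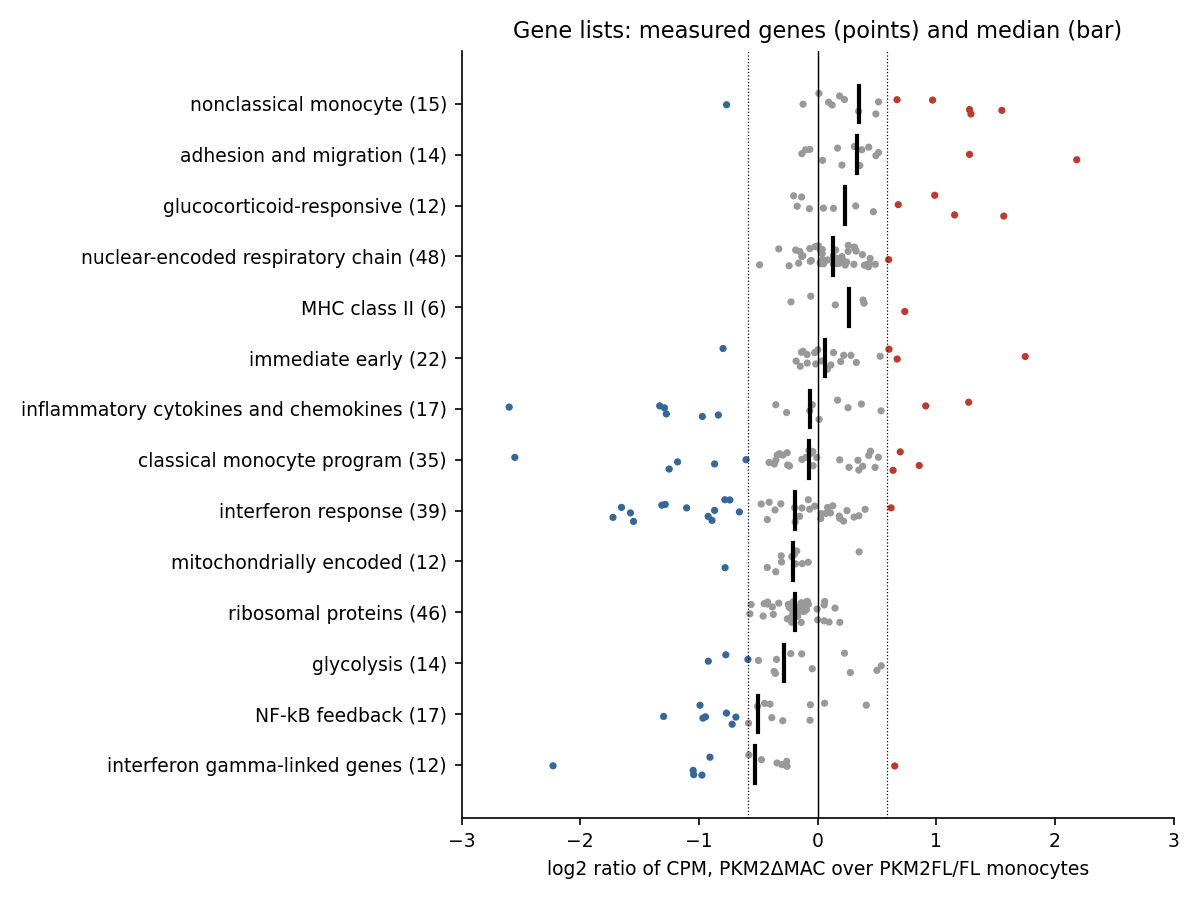
Points give the log2 ratio of CPM in PKM2ΔMAC over PKM2FL/FL members for the measured genes of 14 lists (their number in brackets), red when at least 1.5-fold higher, blue when at least 1.5-fold lower, with a bar at the list median. Lyz2 (-9.70) and Lyz1 (5.21) of the classical program lie beyond the axis and are not drawn. NF-κB feedback, at -0.51, and the interferon-γ linked genes, at -0.53, have the lowest medians of these lists.

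The classical monocyte program held genes on both sides. Of 35 measured classical genes 4 were at least 1.5-fold higher in PKM2ΔMAC members (Lyz1, Chil3, Gpr141 and S100a10) and 6 lower (Lyz2, Prtn3, Vcan, F13a1, Fn1 and Ccr2). Over all measured genes these shares were 8.31% and 7.34%. Chil3, Vcan, F13a1 and Fn1 belong to the rule and are given as description only. Gpr141, an orphan receptor, had 184 CPM in 74 PKM2ΔMAC members and 114 CPM in 94 PKM2FL/FL members. S100a10, an annexin partner, had 801 CPM in PKM2ΔMAC and 515 CPM in PKM2FL/FL members (log2 0.64). Prtn3, a neutrophil serine protease of immature cells, had 13.1 and 76.7 CPM, but 1 PKM2FL/FL cell held 43.3% of its UMIs. Nonclassical monocyte genes, which mark the patrolling subset, had a median of 0.35. Of 15 measured, 5 were at least 1.5-fold higher and 1 lower, beside 8.31% and 7.34% of all measured genes. A single cell held over 20% of a library's UMIs in 4 of those 5. Ace, the angiotensin-converting enzyme, was seen in 17.0% of PKM2ΔMAC and 9.38% of PKM2FL/FL members and Spn, the sialophorin CD43, in 37.0% and 26.2%. Treml4 (19.0% and 21.9%) and Cd300ld (18.0% and 23.8%) were seen in smaller shares of PKM2ΔMAC members. Adgre4 (18.0% and 19.4%), Ear2 (17.0% and 15.6%) and Nr4a1 (94.0% and 93.1%) were seen in similar ones. By share of cells, at unequal depth, these markers thus did not move one way. By level, Treml4 had 41.5 CPM in PKM2ΔMAC and 36.5 CPM in PKM2FL/FL members, Cd300ld 32.7 and 30.7 CPM and Adgre4 38.2 and 30.1 CPM. For each of these genes the counting intervals of the libraries overlapped widely, so no direction is given. Ear2 had 44.7 and 28.1 CPM, but 1 PKM2ΔMAC cell held 29.3% of its UMIs in that library. Nr4a1 had 1059 and 1154 CPM. The intervals of Ear2 and of Nr4a1 overlapped between the libraries as well. The list median lay between 0.09 and 0.64 over the alternatives. Cells with at least 3 nonclassical UMIs besides Nr4a1 numbered 30 in PKM2ΔMAC and 44 in PKM2FL/FL, so a part of the members in each library shared this program. Granule genes of neutrophils had a median of 2.64, which came to 0.20 without the cells that carry other types' transcripts.

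Sensing and migration genes differed gene by gene. Tlr7, an endosomal RNA sensor, had 85.1 CPM in 49 of 100 PKM2ΔMAC members and 31.3 CPM in 40 of 160 PKM2FL/FL members (log2 1.44), and at 2000 UMIs per cell was found in 22.9% (15.0% to 32.6%) and 6.37% (3.10% to 11.4%). Cd14, the lipopolysaccharide co-receptor, and Tlr2, the lipopeptide receptor, were lower: Cd14 had 915 CPM in PKM2ΔMAC and 1458 CPM in PKM2FL/FL members, and Tlr2 had 237 and 373.5 CPM. Ly96, which encodes the lipopolysaccharide-binding MD-2, was higher at 43.6 and 20.5 CPM. Of 17 measured pattern-recognition genes 4 were thus at least 1.5-fold higher (with Cd300lf and Trem1) and 2 lower, none through a single cell. Over all measured genes these shares were 8.31% and 7.34%. Among chemokine receptors Cxcr4, a marrow retention receptor, was higher at 515 CPM in PKM2ΔMAC and 306 CPM in PKM2FL/FL members. Ccr2 was lower at a ratio of 0.658 (0.589 to 0.735), and at equal depth it was found in 51.0% of PKM2ΔMAC members (40.6% to 61.4%) and 69.4% of PKM2FL/FL members (61.6% to 76.5%). Fcgr1, the high-affinity IgG receptor, had 29.5 CPM in 19.0% of PKM2ΔMAC members and 69.1 CPM in 30.6% of PKM2FL/FL members.

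Glucocorticoid-responsive genes had 4 of 12 at least 1.5-fold higher and 0 lower, beside 8.31% and 7.34% of all measured genes. Fkbp5, a chaperone that tempers the glucocorticoid receptor, had 79.6 CPM in 49 PKM2ΔMAC members and 26.9 CPM in 37 PKM2FL/FL members, a ratio of 2.96 (2.0 to 4.44), and at equal depth was found in 21.9% (14.1% to 31.5%) and 4.46% (1.81% to 8.97%). Il1r2, a decoy receptor, had 32.7 and 14.7 CPM, while Tsc22d3, another target, had 313 and 251 CPM and stayed under the 1.5-fold size. The list median of 0.23 was -0.23 when the rule was applied to thinned cells. In 2 of the 4 higher genes, Il1r2 among them, a single cell held over 20% of a library's UMIs.

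Several lists held few genes past the size. Ribosomal protein genes had 39 of 46 below 0 but 0 at least 1.5-fold lower, with a median of -0.19, and at 2000 UMIs a PKM2ΔMAC member carried a median of 287 of these UMIs against 297 in a PKM2FL/FL member. Myeloid transcription factors had 0 of 22 past the size in either direction, with Cebpb at 3578 CPM in PKM2ΔMAC and 3553 CPM in PKM2FL/FL members, Klf4 at 587 and 593.5 CPM and Irf8 at 208 and 264 CPM. Lysosome genes (1 of 23 higher), citric acid cycle genes (1 of 20 lower), lipid-handling genes (2 of 18 higher, Abcg1 and Apoe) and heat shock genes (0 of 12) lay near the background. For Apoe, 1 PKM2ΔMAC cell held 32.8% of that library's member UMIs. Its medians over single members were 26.2 UMIs per 10000 in PKM2ΔMAC and 24.95 in PKM2FL/FL. Among profibrotic and matrix genes 5 of 17 were at least 1.5-fold higher, in each of which a single cell held over 20% of a library's UMIs, and 3 lower (Areg, Tgfbi and Fn1). Fn1 belongs to the selection rule and is given as description only. The background over all measured genes was 8.31% higher and 7.34% lower. Thbs1, which encodes the TGF-β activating thrombospondin 1, had 718 CPM in PKM2ΔMAC and 527 CPM in PKM2FL/FL members, while Areg, an EGF receptor ligand, gave 4 UMIs in 2 and 52 UMIs in 12 members.

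Set beside the Gpnmb or Trem2 carriers of the same library, members differed in several genes. Gdf15, a stress cytokine, stood in members at 0.0431 times (0.0234 to 0.0740) its level in carriers in the PKM2ΔMAC library and at 0.162 times (0.116 to 0.223) in the PKM2FL/FL library. F10 was lower in members as well, at 0.576 times in PKM2ΔMAC and 0.488 times in PKM2FL/FL, and Fabp5, a fatty acid binding protein, at 0.346 and 0.104 times. Flt3 stood at 1.84 times (0.984 to 3.75) in PKM2ΔMAC, an interval that includes 1, and at 4.36 times (2.11 to 10.4) in PKM2FL/FL. Other ratios lay apart: H2-Ab1 was 1.87 times (1.60 to 2.19) as high in members as in carriers in the PKM2ΔMAC library and 0.354 times (0.326 to 0.385) as high in the PKM2FL/FL library, Ccr2 stood at 0.893 times (0.748 to 1.07) and 1.15 times (1.03 to 1.28), and Fcgr1 at 0.215 times (0.128 to 0.355) and 1.06 times (0.741 to 1.53). Of these 3, both intervals excluded 1 on opposite sides for H2-Ab1 alone. H2-Ab1 was found in 32 PKM2ΔMAC members, and a single cell held 259 of its 1018 UMIs there. Counting intervals do not cover such spread over cells, and the class II median changed sign with the definition of members. The H2-Ab1 ratios are therefore given as values only, and with 1 library each the difference between genotypes could not be tested. Against dendritic cells chosen by Cd209a and Flt3, members had less Cd74, the class II invariant chain, at 0.127 times in PKM2ΔMAC and 0.117 times in PKM2FL/FL.

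The genotype difference of the NF-κB feedback list had the same direction in 7 gates with enough genes, at medians of -0.51 in members, -0.47 in carriers, -0.74 in neutrophils, -0.29 in dendritic cells, -0.50 in natural killer cells, -0.36 in T cells and -0.26 in B cells. A lower list was thus seen in the PKM2ΔMAC library across cell types and was not particular to monocytes. Glycolysis medians were below 0 in all 8 gates. The interferon list median was 0.73 in carriers, where 19 of 33 genes were at least 1.5-fold higher and 0 lower. Of all 2779 genes measured in carriers, 278 were higher and 350 lower by this size. In dendritic cells the interferon median was -0.56. Its sign in members depended on the measure, so no difference in direction from members can be given. For MHC class II all 6 measured genes were at least 1.5-fold lower in PKM2ΔMAC carriers, with a median of -1.57. In PKM2ΔMAC Kupffer cells 4 of 6 were, with a median of -0.77, beside 65 of all 638 genes measured there. In members 0 of 6 were, but their median changed sign with the definition, as given above, so members are not set against these gates.

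**Figure D5:**
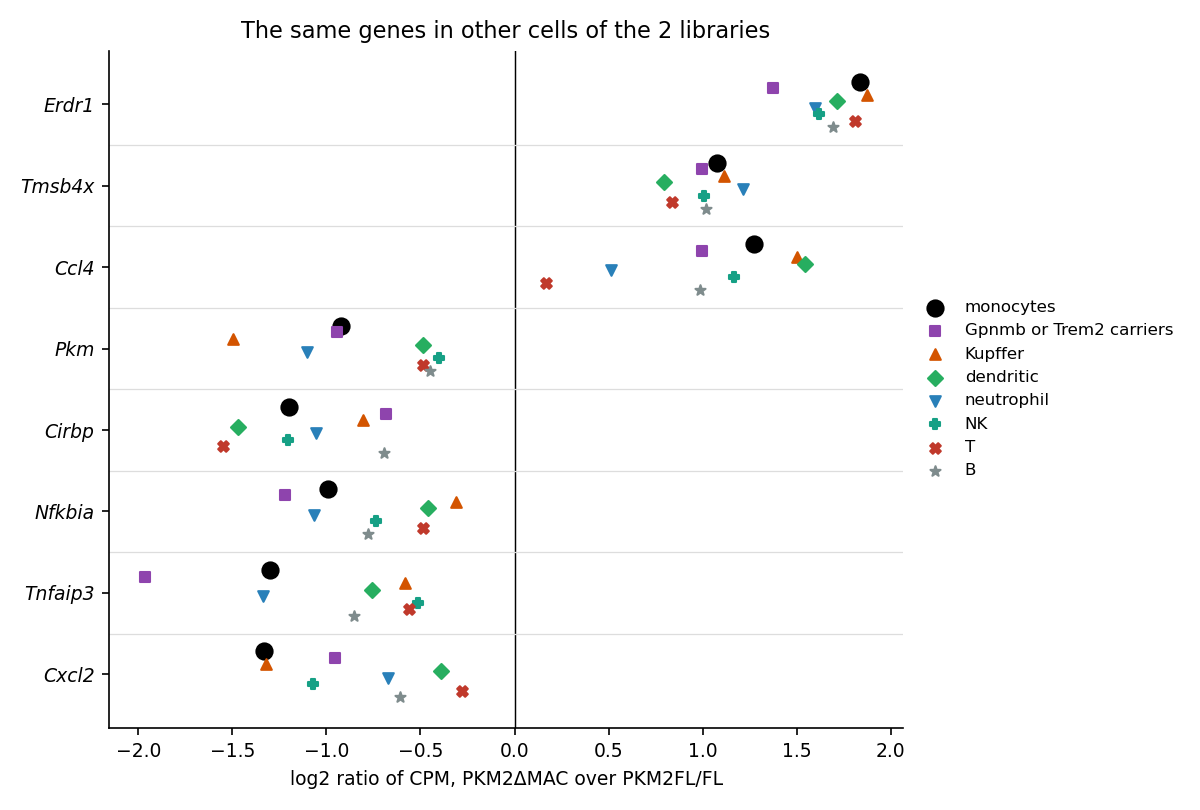
Each symbol gives the log2 ratio of CPM in PKM2ΔMAC over PKM2FL/FL for 1 gene in the monocytes (large circle) or in 1 of 7 other cell gates. Erdr1, Tmsb4x and Ccl4 lie above 0, and Pkm, Cirbp, Nfkbia, Tnfaip3 and Cxcl2 below 0, in all 8 gates.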

How the data were processed

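Both matrices hold raw UMI counts per gene and barcode, deposited by the authors as Cell Ranger output. Cell Ranger 6.0.0 is named per the file headers, and mm10 and Seurat 4.3.0 per the submitters' processing notes. The sources used here do not give the 3′ kit version or the filter on barcodes. The members, gene lists and named-gene rule were chosen with earlier results of these data known.

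From the counts, cells with at least 300 genes and under 20% mitochondrial UMIs were kept, the rule was applied, and member UMIs were summed per library and scaled to CPM of that sum. Ratios (PKM2ΔMAC over PKM2FL/FL) have exact conditional intervals, levels exact Poisson and shares exact Clopper-Pearson intervals, all at 95%. Genes far above their neighbours in a few cells were traced by the share of the top cell. No test between genotypes was made, because each has 1 library. Gene lists were read over members with at least 50 UMIs in all, at 1.5-fold. Named genes are the 14 highest and 14 lowest log2 ratios among genes that reached 100 UMIs in all and 100 CPM in 1 library or both. Left out of that ranking were mitochondrial, ribosomal, haemoglobin, immunoglobulin, T cell receptor, sex-linked marker and unnamed genes, rule genes, genes of which 1 cell held over 20% of a library's UMIs, and genes at over 5 times the member level in another cell class. Tnf, Tlr7, Fkbp5, Lyz1, Il1b and further list genes were named after their values were seen. A few genes, named ones among them, are not reported here. For equal depth each member was thinned to 2000 UMIs, which left out 4 PKM2ΔMAC and 3 PKM2FL/FL members. Doublets were marked with Scrublet at an expected rate of 0.08 and kept. The other gates took Clec4f or Timd4 with Csf1r (Kupffer), Cd209a and Flt3 (dendritic), S100a8 and S100a9 with Retnlg, Csf3r or Cxcr2 (neutrophil), Ncr1 and Klrb1c (natural killer), Cd3 genes (T) and Cd79a (B). Gene positions are GENCODE on GRCm38 and start-site windows RefSeq on GRCm38.p6. The steps for gene ratios, exact intervals and thinning were tested on simulated data, and the list step was not. The tools were scanpy 1.11.5, anndata 0.12.19, pandas 2.3.3, scipy 1.17.1, numpy 2.4.6 and matplotlib 3.10.9 under Python 3.11.15.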

Additional observations from a re-analysis of the deposited data

How the results depend on the processing

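No paired analysis was possible because each genotype has 1 library. Over the alternatives run, 572 of 620 list medians stayed within the spread of the main value, used as tolerance, and 40 moved outside it. The other 8 changed sign in lists whose main spread excluded 0. Sign changes of lists whose spread included 0 are not among these 8. The interferon response median, for example, ran from -0.40 to 0.33. Of 448 values of named genes 376 stayed within their interval, 71 moved and 1 changed sign. That was the log2 ratio of Il1rn, at 0.066 with members thinned. The ratio of shares of cells was 0.703 and stayed within its interval in 10 of 11 alternatives. The exception was 0.922, without cells holding the neutrophil genes Retnlg, Csf3r or Cxcr2. The 49 genes at least 2-fold higher became 18 with Fn1 left out of the sum, 18 with the rule on thinned cells and 11 with members thinned. The 11 at least 2-fold lower became 23 with the rule on thinned cells, 24 without cells holding dendritic genes, 21 without neutrophil genes and 17 with the total taken without mitochondrial and ribosomal genes. The MHC class II median of 0.27 was -0.95 at a sum of at least 10, -0.44 with the rule on thinned cells, -0.29 without dendritic genes and -0.29 without neutrophil genes. The interferon-γ linked median was 0.10 with members thinned, and the glucocorticoid median -0.23 with the rule on thinned cells. The remaining settings were chosen after seeing the data. With few transcripts of other types there were 17 genes at least 2-fold higher, an interferon median of 0.33 and an MHC class II median of 0.95. With at least 2 of the 5 rule genes there were 21 higher and 7 lower genes, an MHC class II median of -0.37, a classical program median of 0.21 and a glucocorticoid median of -0.0015. With the 3 deepest members of each library left out there were 22 higher genes and a classical program median of 0.14. Beyond the settings named, the cause of these shifts was not tested. Depth limits the rest: 1 UMI was worth 1.09 CPM in PKM2ΔMAC and 0.640 CPM in PKM2FL/FL members, so genes of under 50 UMIs were not read.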

Other observations

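Smaller gene groups of the monocytes held further single differences, given here as values. Of all measured genes 8.31% were at least 1.5-fold higher and 7.34% at least 1.5-fold lower in PKM2ΔMAC members. Among Fc and complement receptor genes 3 of 12 were at least 1.5-fold lower in PKM2ΔMAC members, among them Fcgr1 and Fcgr4, which encodes an activating IgG receptor (26.2 CPM in PKM2ΔMAC and 44.1 CPM in PKM2FL/FL members). The higher one, Itgax, which encodes CD11c, had 40.4 and 16.6 CPM, with 1 PKM2ΔMAC cell holding 21.6% of its UMIs. Among genes of cell death and survival the death receptor gene Fas had 84.0 CPM in PKM2ΔMAC and 55.0 CPM in PKM2FL/FL members (log2 0.61), and Bcl2, which restrains apoptosis, 22.9 and 36.5 CPM (log2 -0.67). Abcg1, a cholesterol exporter, had 39.3 and 23.7 CPM (log2 0.73). Blvrb, a biliverdin reductase, had 41.5 and 69.1 CPM (log2 -0.74), while Hmox1, the heme oxygenase upstream of it, had 187 and 109 CPM, with 1 PKM2ΔMAC cell holding 25.1% of its UMIs.

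Irg1, the enzyme that makes itaconate, was seen in 5 PKM2ΔMAC and 13 PKM2FL/FL members, at 12 and 48.6 CPM, and a single cell held 36.4% of its UMIs in PKM2ΔMAC and 32.9% in PKM2FL/FL. Integrated stress response genes (0 of 8) and sterol synthesis genes (0 of 7) held none at least 1.5-fold higher or lower.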
